A study of Mus musculus with 8 samples.

Results

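The genes described here are 9 genes of fetal liver or of their postnatal control: H19, its microRNA gene Mir675, Igf2, Afp, Gpc3 and Tff3, and the repressor genes Zbtb20, Zhx2 and Zfhx3. They are 9 of the 35638 genes of an RNA-seq table of mouse liver, taken by symbol, and all 9 had a row. They were chosen with their levels in these same libraries known. Their differences between genotypes are therefore given as a description, with no p-value. The values are FPKM, which scales fragments by the length of a gene and the size of a library. The libraries came from frozen livers at postnatal day 90, of mice on a mixed C57/B6 and 129 background. In the 4 WT libraries the mice carried Arid1a Fl/Fl, that is loxP sites in both Arid1a alleles, with no Cre named. In the 4 KO libraries Arid1a Fl/Fl was combined with Alb-cre, which uses the albumin promoter to express Cre recombinase in hepatocytes. No group carried Alb-cre without floxed alleles, and cells of KO livers that never express Cre keep their Arid1a gene. Arid1a encodes a DNA-binding part of SWI/SNF, which remodels chromatin, and the series asks how its loss alters lipid metabolism in the liver. The labels do not say that replicates came from separate animals. The p-values here set group differences against the spread among these samples, and that spread may be technical.

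Fetal hepatocytes express a set of genes that is shut down soon after birth and can return in regeneration and liver cancer. H19 is an imprinted noncoding RNA that shares an enhancer region with Igf2, the gene of insulin-like growth factor 2. The maternal chromosome expresses H19 and the paternal chromosome Igf2, under a control region bound by CTCF. Afp encodes alpha-fetoprotein, the fetal relative of serum albumin, and Gpc3 encodes the cell surface proteoglycan glypican 3. Tff3 encodes a secreted trefoil peptide of mucous epithelia. Zbtb20 and Zhx2 encode zinc finger and homeobox repressors that silence Afp after birth. Zhx2 was mapped as the Afr1 locus, through mice that keep Afp and H19 active in adult liver. Zfhx3, also called Atbf1, encodes a large homeodomain protein first described as a repressor at an Afp enhancer.

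The microRNA of the H19 locus and the promoter of Afp are shown because the results turn on the genes that hold them. Mir675 lies inside H19 (GRCm38, chr7:142577064-142577147, minus strand), wholly within an exon of 3 of the 7 annotated H19 transcripts and in exon 1 of 2 of these. Its mature sequences, from RefSeq (GRCm38.p6), are given with the seed (bases 2 to 8) in capitals.
mmu-miR-675-5p: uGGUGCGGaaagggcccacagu
mmu-miR-675-3p: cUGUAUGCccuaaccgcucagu
Of 1679 mouse mature microRNA names in the RefSeq table, 0 others shared the seed of either arm.

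The proximal Afp promoter is the segment through which Zbtb20 and Zhx2 are known to act. The last 110 bases before the RefSeq start of Afp (GRCm38.p6, chr5:90490604-90490713, plus strand) are given with motif matches in capitals.
Afp promoter: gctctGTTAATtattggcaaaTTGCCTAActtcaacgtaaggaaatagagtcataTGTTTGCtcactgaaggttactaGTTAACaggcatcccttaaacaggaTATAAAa
The motifs searched were the TATA box TATAAA on the gene strand, and on both strands the HNF1 elements GTTAAT and GTTAAC, the FOX core TGTTTGC and the C/EBP core TTGCNNAA. No match overlapped another motif's match, and GTTAAC reads the same on both strands. The TATA box lay 7 to 2 bases before the RefSeq start, which is 30 to 25 bases before the GENCODE M21 start. The shares of all 32851 RefSeq windows of 250 bases that held each motif were 7.59% for TATAAA, 6.43% for GTTAAT, 2.56% for GTTAAC, 4.30% for TGTTTGC and 9.56% for TTGCNNAA. The Afp window held all 5 motifs, at 36.0% GC, a lower GC content than in all but 5.8% of windows. The RefSeq table had windows for 5 of the 9 genes. The Gpc3 window was at 71.6% GC with 25 CpG sites and that of Zfhx3 at 66.0% with 18, and neither held any of the 5 motifs. The Zbtb20 window (44.8% GC) held GTTAAC, and the 4 Igf2 windows, at 47.6 to 68.8% GC, held none of the 5. A match describes the letters only.

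Depth, estimated from the steps between low values, was 12400000 to 13500000 reads in WT and 13700000 to 15200000 in KO. Genes listed above 0 numbered 20164 to 21309 in WT and 21466 to 22273 in KO, so both measures were higher in every KO library. Arid1a ran from 3.998 to 8.38 FPKM in WT and from 2.59 to 3.46 FPKM in KO, without overlap (exact two-sided permutation test, p = 0.0286, the smallest that 70 splits allow). In the genome-wide limma comparison its adjusted p was 0.316. The hepatocyte genes Alb, Apoa1 and Ttr were abundant in all 8 libraries. Xist was at 53.5 to 95.7 FPKM in all 8, and the 4 Y-linked genes looked up were at or near 0 in every library. In bulk liver, more cells of a type and more RNA per cell cannot be told apart.

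H19 (ENSMUSG00000000031, chromosome 7, 142575529 to 142578143, minus strand) was near the detection limit in WT liver and readily detected in KO liver. It measured 0.10, 0.0928, 0.122 and 0 FPKM across WT 1 to WT 4, against 3.84, 4.65, 6.70 and 4.196 FPKM across KO 1 to KO 4. Every KO library lay far above every WT library, and KO 3 was the highest. The means were 0.0787 ± 0.0539 FPKM in WT, against 4.85 ± 1.28 FPKM in KO (SD, n = 4 each). At the estimated depth and the longest annotated transcript, these values correspond to about 2.9, 2.8, 3.8 and 0 reads in WT and 120.4 to 209.8 reads in KO. The difference of KO minus WT was 2.42 ± 0.19 (SE) on the log2(FPKM + 1) scale. Because the WT level is so low, this size depends on the pseudocount and was 4.82 with 0.1 FPKM and 0.95 with 5 FPKM in place of 1.

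Mir675, the hairpin gene processed from H19, was listed at 0 in all 4 WT libraries, against 4.14, 1.23, 3.68 and 4.21 FPKM across KO 1 to KO 4. KO 2 was the lowest of the KO libraries, while its H19 level was the second highest. A gene of 84 bases gains 0.78 to 0.96 FPKM from 1 read at these depths, so the KO values rest on about 1.6 to 5.2 reads per library. The libraries were made from total RNA with no size selection named in the labels. Reads of Mir675 and of the H19 exon around it cannot be told apart, and no value of the mature microRNA was measured.

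Igf2 (chromosome 7, 142650766 to 142666816), whose annotated start lies 88.7 kb from that of H19, remained at trace levels. It was listed at 0 in all 4 WT libraries, against 0.0551, 0.0311, 0.0249 and 0.0379 FPKM across KO 1 to KO 4. Every KO value was above 0, but each corresponds to only about 1.6 to 3.6 reads. In KO the mean was 0.0373 ± 0.0130 FPKM (SD, n = 4), against 4.85 FPKM for H19, both per length. Igf2 did not reach the mean of 1 FPKM required for testing. Over all genes listed, 92 of 35638 (0.258%) were listed at 0 in all WT and above 0 in all KO libraries, against 15 (0.0421%) with the opposite pattern, in libraries of lower depth in WT.

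**Figure D1:**
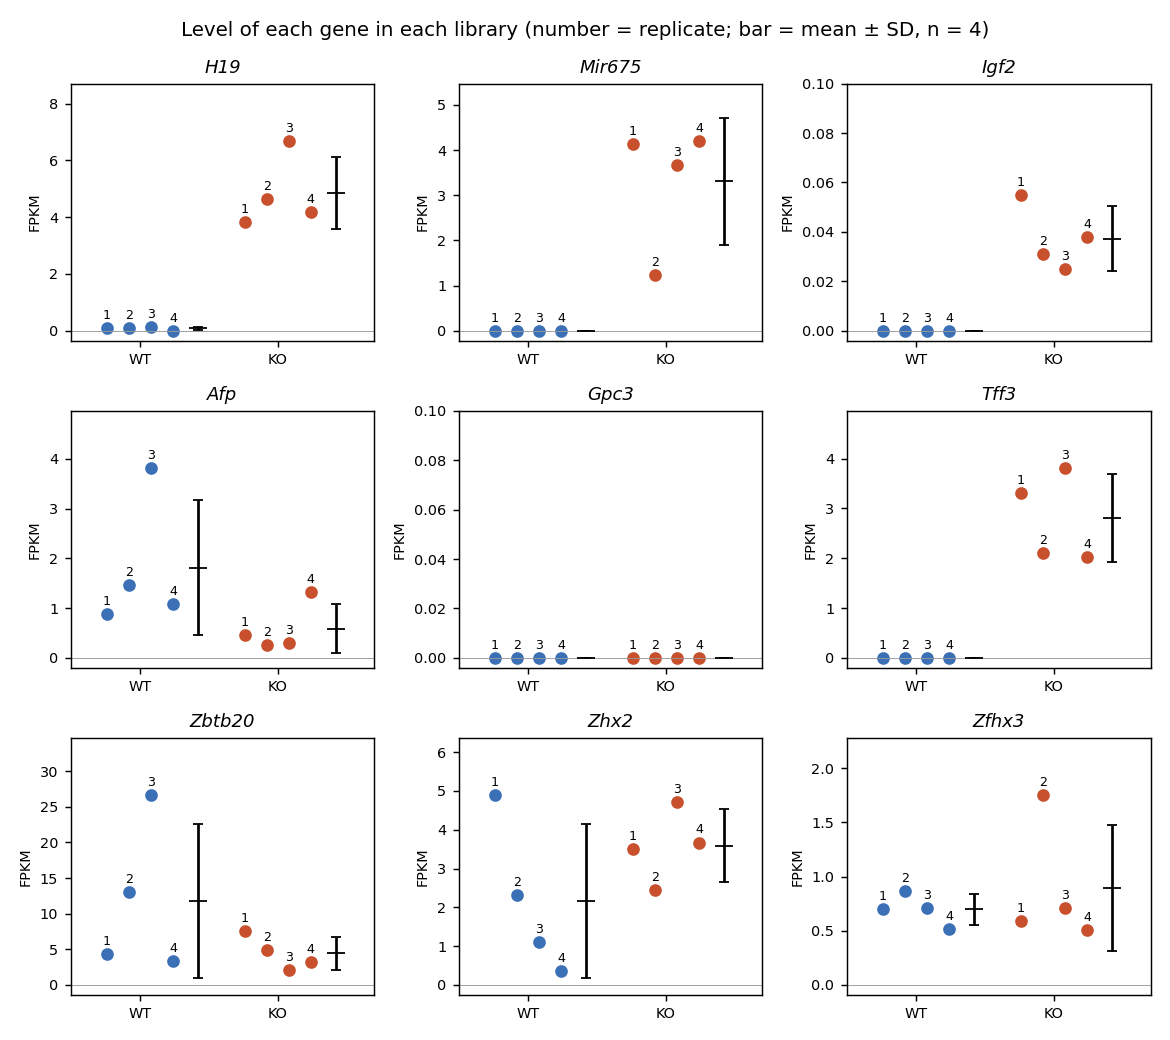
FPKM of each of the 9 genes in each library (points, numbered by replicate; blue WT, red KO), with the mean ± SD of 4 libraries as a black bar; the vertical scale differs between panels. H19, Mir675, Igf2 and Tff3 are higher in all KO libraries, Igf2 only at up to 0.0551 FPKM, Gpc3 is at 0 throughout, and Afp and the 3 repressor genes overlap between the groups.

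The genes around H19 were mostly silent in both groups. Of 14 genes within 150 kb of H19 on either side, H19 included, 4 were listed at 0 in all libraries and 3 had a mean of at least 1 FPKM, namely H19, Mir675 and Mrpl23. Mrpl23, a mitochondrial ribosomal protein gene 34.8 kb from H19, was at 10.1 ± 0.625 FPKM in WT, against 12.4 ± 0.901 FPKM in KO (SD, n = 4 each). Its groups did not overlap, but with a difference of 0.27 on the log2(FPKM + 1) scale the limma adjusted p was 0.625, not past the threshold. Ins2, Igf2os, the Mir483 gene inside Igf2, and the muscle enhancer transcript Nctc1 were at 0 or at most 0.0212 FPKM. Gm27786, a short RNA gene annotated on the other strand of H19, was listed at 0 except in KO 2 (1.81 FPKM) and KO 3 (1.03 FPKM), and its reads cannot be told apart from those of H19 without strand. Lsp1, a leukocyte gene 80.7 kb away, was at up to 0.00978 FPKM in WT, against 0.0104 to 0.0909 FPKM in KO.

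**Figure D2:**
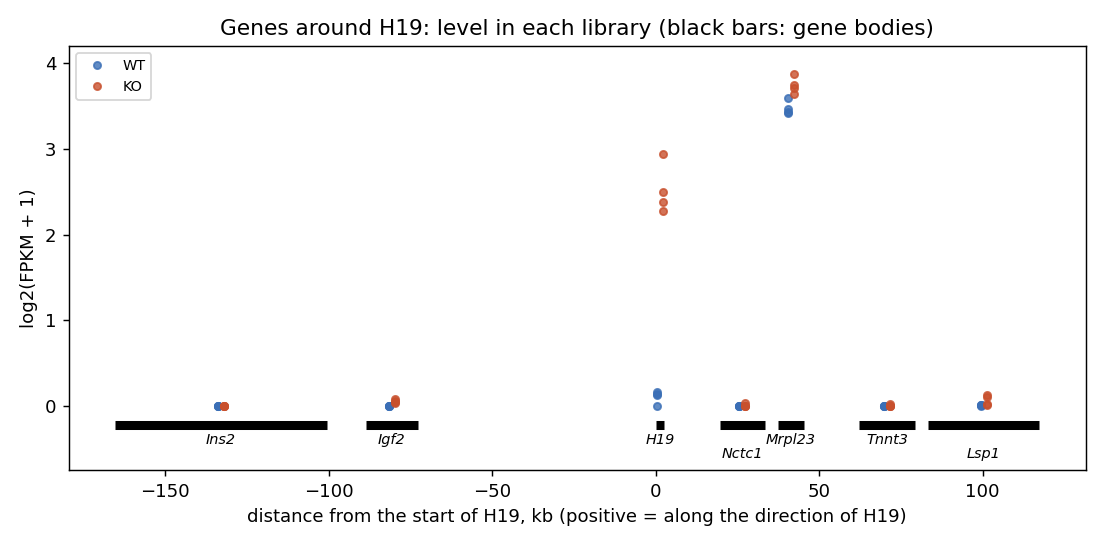
Level of 7 genes around H19 in each library, as log2(FPKM + 1), against the distance in kb from the start of H19 to the middle of each gene; points are libraries (blue WT, red KO) and black bars gene bodies. H19 is the gene that separates the groups widely, Mrpl23 differs by 0.27, and Igf2 and the other genes lie near 0.

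H19, Mir675 and Tff3 were the members past the threshold of the genome-wide comparison (limma, Benjamini-Hochberg adjusted p under 0.05), all higher in KO. They are 3 of 6 members tested, where 46 of 11266 genes (0.408%) were higher, 40 (0.355%) lower and 86 (0.763%) either. Over all tested genes 344 (3.05%) had every KO library above every WT library, 358 (3.18%) below, and 702 (6.23%) either. These shares are given as background only, since the members were chosen on this contrast. H19, Mir675 and Tff3 also passed the minimum of 1 FPKM only through their KO libraries. Mir675 is not a call separate from H19, since its reads cannot be told apart from those of the H19 exon around it. With no filter Mir675 was not past the threshold.

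Markers of other liver cells were higher in the same KO libraries. The summed FPKM of 11 macrophage markers was 6.56 to 14.7 in WT and 20.4 to 153 in KO, that of 8 endothelial markers 2.20 to 7.73 and 13.6 to 25.6, and that of 10 stellate cell and fibroblast markers 1.99 to 6.32 and 9.64 to 23.7. Of these, 10, 6 and 2 genes were tested. All had a positive difference and 0 passed the threshold. Of the macrophage genes tested, Adgre1, Cd68, Csf1r, Marco and Vsig4 passed the minimum of 1 FPKM only through their KO libraries. So did Cdh5, Clec4g, Kdr, Stab1 and Stab2 of the endothelial genes. For these genes the filter itself fixed a higher KO mean, so nothing is read from their sign. KO 3, the highest for H19, also had the highest macrophage sum (153) and the highest endothelial sum (25.6) of all libraries, but the lowest stellate sum of the KO libraries (9.64). KO 2, the second highest for H19, had the lowest macrophage and endothelial sums of the KO libraries (20.4 and 13.6). The part of other cells in the H19 values was not tested.

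**Figure D3:**
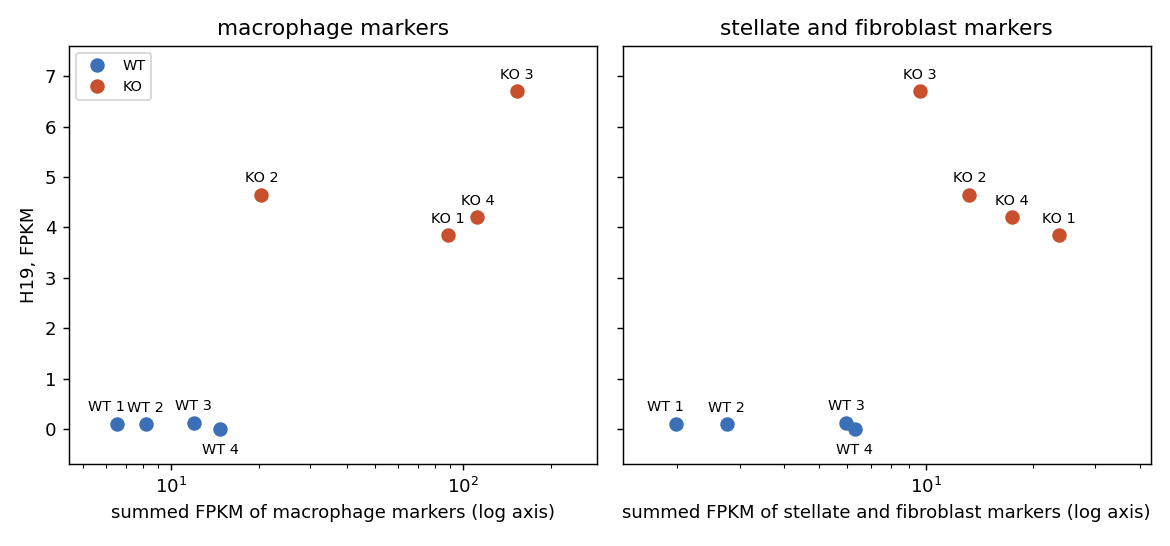
H19 level in FPKM against the summed FPKM of macrophage markers (left) and of stellate cell and fibroblast markers (right), on a log horizontal axis; each point is a library (blue WT, red KO). Both marker sums separate the groups, and within KO the macrophage sum is highest, 153, in KO 3, which is highest for H19, and lowest, 20.4, in KO 2, which is second highest.

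Afp (ENSMUSG00000054932, chromosome 5, 90490737 to 90508907) did not share the pattern of H19. It measured 0.879, 1.46, 3.82 and 1.09 FPKM across WT 1 to WT 4, against 0.467, 0.267, 0.291 and 1.33 FPKM across KO 1 to KO 4. Only KO 4 overlapped the WT range, and WT 3 was the highest library. The means were 1.81 ± 1.36 FPKM in WT, against 0.588 ± 0.5004 FPKM in KO (SD, n = 4 each), resting on about 22.9 to 106.4 and 8.2 to 40.5 reads. The difference of KO minus WT was -0.76 ± 0.32 (SE) on the log2(FPKM + 1) scale, opposite in sign to that of H19. It was -0.96 to -0.67 when any library but WT 3 was left out, and -1.48 with a pseudocount of 0.1 FPKM. Without WT 3, the highest library, Afp fell under the mean of 1 FPKM and was not fitted. Among the other genes of the albumin family, which lie in the same cluster, Alb was at 24190 ± 3111 FPKM in WT, against 26760 ± 4102 FPKM in KO (SD, n = 4 each). Afm, the afamin gene, was at 79.6 ± 10.2 and 103.9 ± 12.8 FPKM (limma adjusted p = 0.511), without overlap. Of the 3 tested (Alb, Afm and Gc, the vitamin D binding protein gene), 0 passed the threshold and 0 had an unadjusted p under 0.05.

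Gpc3 (chromosome X, 52272426 to 52613950), a marker of fetal liver and hepatocellular carcinoma, was listed at 0 in all 8 libraries. For its longest transcript 1 read would give 0.030 to 0.036 FPKM, and a count of 0 allows up to 3 reads, or 0.09 to 0.11 FPKM, so a level below that was not detectable at this depth. Other glypican genes were measured. Gpc4 was at 18.9 ± 2.25 FPKM in WT, against 16.2 ± 4.85 FPKM in KO (SD over 4 libraries each, limma adjusted p = 0.833), and Gpc1, Gpc2 and Gpc5 were at 0.164 FPKM or less in every library. Gpc6 was at 0.00783 to 0.0497 FPKM in WT, against 0.117 to 1.48 FPKM in KO, without overlap and under the minimum for testing.

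Tff3 (chromosome 17, 31125306 to 31129646) was listed at 0 in all 4 WT libraries, against 3.30, 2.11, 3.82 and 2.03 FPKM across KO 1 to KO 4. All KO libraries were above 0, with about 14.8 to 25.8 reads each and a mean of 2.81 ± 0.887 FPKM (SD, n = 4). Tff3 is known in bile duct and intestinal epithelium, and the markers of these epithelia were low. Krt7 was above 0 in KO 3 alone (0.00824 FPKM) and Krt19 in KO 4 alone (0.109 FPKM). Epcam was at 0.0724 FPKM or less in every library, and the goblet cell gene Muc2 was listed at 0 in all 8. Spp1, which macrophages also express, made up most of the cholangiocyte marker sum in KO 1 and KO 3 (5.999 and 6.72 FPKM, against 0.512 and 1.43 FPKM in KO 2 and KO 4). The sum ran from 1.68 to 2.42 in WT and from 2.13 to 8.19 in KO. Tff3 in turn was higher in KO 1 and KO 3 than in KO 2 and KO 4. The part of other cell types in the Tff3 values was not tested. Of the other trefoil genes, Tff1 was at 0 to 0.631 FPKM in WT, against 0.358 to 1.497 FPKM in KO, and Tff2 was above 0 in KO 4 alone (0.114 FPKM).

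The repressor genes showed no common shift between the genotypes, and Zbtb20 and Zhx2 varied widely among the WT libraries. Zbtb20 (chromosome 16, 42875881 to 43642602) measured 4.29, 13.0, 26.7 and 3.32 FPKM across WT 1 to WT 4, against 7.52, 4.91, 2.08 and 3.24 FPKM across KO 1 to KO 4. The WT libraries differed among themselves by 8.03 times and the groups overlapped. WT 3, the highest for Zbtb20, was also the highest for Afp. The difference of KO minus WT was -0.94 ± 0.57 (SE) on the log2(FPKM + 1) scale, and it was -0.43 without WT 3.

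Zhx2 (chromosome 15, 57694665 to 57839832) measured 4.89, 2.31, 1.11 and 0.359 FPKM across WT 1 to WT 4, against 3.51, 2.45, 4.73 and 3.67 FPKM across KO 1 to KO 4. WT 1 was above every KO library and the other WT libraries below every KO library. The highest WT value was 13.6 times the lowest, against 1.93 times in KO. The difference was 0.72 ± 0.40 (SE) and, leaving out 1 library at a time, ran from 0.39 to 1.09. The Zhx2 levels of the 4 KO libraries lay within the WT range only through WT 1. A link between the Zhx2 and H19 levels was not tested. Zfhx3 (chromosome 8, 107942644 to 108961630) measured 0.698, 0.868, 0.707 and 0.514 FPKM across WT 1 to WT 4, against 0.593, 1.75, 0.712 and 0.505 FPKM across KO 1 to KO 4. The groups overlapped, KO 2 stood apart above the other 7, and with a mean of 0.794 FPKM the gene was not tested.

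The spread of Zbtb20 and Zhx2 in WT was large beside that of other genes, while the highest WT value of Zfhx3 was only 1.69 times the lowest. The SD of log2(FPKM + 1) over the WT libraries was 1.25 for Zbtb20 and 0.91 for Zhx2, against a median of 0.33 over all tested genes, and 98.3 and 94.2% of tested genes had a smaller one. In KO it was 0.63 and 0.30 (87.3 and 48.1%). The paralogues of Zhx2, chosen here after their values were seen, had the same feature. Zhx1 was at 1.54, 5.30, 17.8 and 5.04 FPKM across WT 1 to WT 4, but at 4.80 to 5.06 FPKM in KO. Zhx3 was at 21.3, 1.81, 10.7 and 43.2 FPKM across WT 1 to WT 4, and at 14.6 to 25.0 FPKM in KO. No single WT library was high for all of them, since WT 1 led for Zhx2, WT 3 for Zhx1 and Zbtb20, and WT 4 for Zhx3. GENCODE M21 gives 21 transcripts for Zbtb20, the longest of 26901 bases, and 2 for Zhx2. The program that made the FPKM values is not given in the sources used here, and the part of transcript assignment in this spread was not tested.

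**Figure D4:**
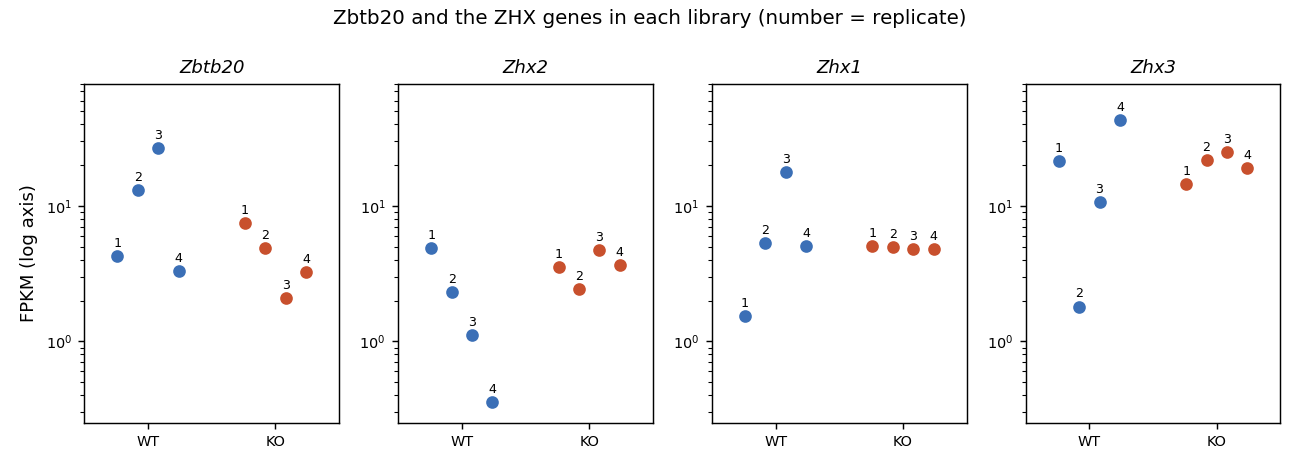
FPKM of Zbtb20, Zhx2, Zhx1 and Zhx3 in each library on a log axis (points, numbered by replicate; blue WT, red KO). The WT points spread widely in all 4 panels, from 0.359 to 4.89 FPKM for Zhx2, while the KO points of Zhx1 lie between 4.80 and 5.06 FPKM.

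Genes linked to these members by locus, family or function were followed in 11 lists without the members themselves. Of 92 distinct list genes tested, 4 rose and 0 fell in KO (limma adjusted p under 0.05), while 12 were higher and 9 lower at an unadjusted p under 0.05. These 4 are 4.35% of the list genes tested, beside 0.763% called over all tested genes, of which 9.81% had an unadjusted p under 0.05. The lists were chosen with earlier results of these data known, so the 4.35% is a description and nothing is read from it. The shares of 0.763% and 9.81% are the background for each list's counts. The 4 genes that rose were Lpl, Mup20, Igfbp7 and Akr1b7. Of these, Lpl and Akr1b7 passed the minimum of 1 FPKM only through their KO libraries. The median difference of each list is given beside that of all tested genes, which was -0.03 on the log2(FPKM + 1) scale.

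In the H19 and Igf2 domain, 8 of 18 neighbouring genes in the table were tested and 0 passed the threshold, with 1 higher and 0 lower at an unadjusted p under 0.05 (list median -0.13). The smallest p was that of Slc22a18, an imprinted transporter gene, at 17.3 ± 3.58 FPKM in WT, against 26.3 ± 3.39 FPKM in KO (SD over 4 libraries each, limma adjusted p = 0.290). Of 7 tested regulators of the locus 0 passed, and 0 had an unadjusted p under 0.05 (median 0.00). Dgcr8, whose product releases microRNA hairpins from their hosts, was at 1.86 ± 0.842 FPKM in WT, against 1.03 ± 0.114 FPKM in KO (limma adjusted p = 0.579). Ctcf, the insulator protein gene, was at 1.76 to 2.32 FPKM in WT, against 1.52, 2.64, 5.44 and 5.46 FPKM across KO 1 to KO 4 (limma adjusted p = 0.615).

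Of 7 tested genes of the imprinted gene network 0 passed the threshold, with 1 higher and 1 lower at an unadjusted p under 0.05 (median 0.13). Dcn, the decorin gene of stellate cells and fibroblasts and also a marker of that list, was at 2.33 ± 1.76 FPKM in WT, against 9.33 ± 3.21 FPKM in KO (SD over 4 libraries each, limma adjusted p = 0.0866). It passed without WT 4 (limma adjusted p = 0.0273), with array weights (0.0396) and without WT 4 and KO 2 together (0.0392). Leaving out any other single library gave limma adjusted p of 0.106 to 0.223. Peg3, a paternally expressed zinc finger gene, went the other way, with 3.59, 3.61, 9.03 and 1.33 FPKM across WT 1 to WT 4, against 0.921, 0.543, 0.690 and 0.498 FPKM across KO 1 to KO 4. Its groups did not overlap, and the limma adjusted p was 0.136, or 0.0351 without WT 4. Without any other single library the limma adjusted p of Peg3 was 0.191 to 0.292.

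Among 12 tested receptors and serum partners of the insulin-like growth factors, 2 were higher and 2 lower at an unadjusted p under 0.05 (median -0.07). Of these genes, 1 rose past the threshold. This was Igfbp7, a binding protein gene of vascular cells, which rose from 2.38 ± 0.889 to 10.1 ± 3.24 FPKM (SD over 4 libraries each; log2 difference 1.71, limma adjusted p = 0.0220). The endothelial, macrophage and stellate cell marker sums were all higher in the same KO libraries. The part of other cells in the Igfbp7 values was not tested. The call was lost without WT 1, WT 2, KO 1, KO 3 or KO 4, with limma adjusted p of 0.0569 to 0.0748, and with no filter (0.0790). Igfbp2, Igfals and Ghr were chosen after their values were seen. Igfbp2 was at 139.1 ± 28.7 FPKM in WT, against 276.0 ± 95.5 FPKM in KO, without overlap (limma adjusted p = 0.157). Igfals was at 41.9 ± 6.71 and 25.0 ± 10.7 FPKM (limma adjusted p = 0.389), and Ghr at 109.5 ± 20.2 and 74.9 ± 15.8 FPKM (0.398). Igf2r, the clearance receptor of IGF2, was at 1.99 ± 0.447 and 2.85 ± 1.21 FPKM (limma adjusted p = 0.754). Igf1r, a known target of miR-675, was at 0.0197 FPKM or less in WT and at 0.0301 to 0.106 FPKM in KO, under the minimum for testing. Of 9 tested genes of glypicans and heparan sulfate 0 passed, with 2 higher and 1 lower at an unadjusted p under 0.05 (median -0.09, with 9.81% at that p over all tested genes). Notum, a lipase gene that releases glypicans and Wnt lipids, was at 15.9 ± 2.19 FPKM in WT, against 7.78 ± 2.46 FPKM in KO, without overlap (limma adjusted p = 0.114).

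Of 24 tested activators and repressors of Afp 0 passed the threshold, with 1 higher and 3 lower at an unadjusted p under 0.05 (median -0.07). Esrra, an orphan receptor gene, had the smallest p, at 6.03 ± 0.279 FPKM in WT, against 8.79 ± 1.37 FPKM in KO (SD over 4 libraries each, limma adjusted p = 0.345). Prox1, a homeobox gene of liver development chosen after its values were seen, was at 32.8 ± 4.39 FPKM in WT, against 20.6 ± 5.87 FPKM in KO, without overlap (limma adjusted p = 0.349). Of 11 tested paralogues of the repressors 0 passed, with 0 higher and 1 lower at an unadjusted p under 0.05 (median -0.14). That gene was Zfhx2, at 1.62 ± 0.239 and 0.950 ± 0.354 FPKM (limma adjusted p = 0.489).

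Genes reported to respond to Zhx2 included 2 that rose among 6 tested (median 0.21), beside 0.408% over all tested genes. The list was set without a direction of response for each gene, so the count does not describe a response to Zhx2. Mup20, the gene of the male urinary pheromone darcin, rose from 1.65 ± 0.325 to 10.4 ± 2.60 FPKM (SD over 4 libraries each; log2 difference 2.08 ± 0.21, limma adjusted p = 0.00295). Lpl, the lipoprotein lipase gene of fetal liver, rose from 0.107 ± 0.0592 to 4.19 ± 1.96 FPKM (SD over 4 libraries each; log2 difference 2.15 ± 0.28, limma adjusted p = 0.00913). Lpl passed the minimum of 1 FPKM only through its KO libraries. Macrophages can also express Lpl, and their marker sum was higher in the same libraries. Lpl was at 6.01 FPKM in KO 2, which had the lowest macrophage sum of the KO libraries, and at 5.68 FPKM in KO 3, which had the highest. The part of macrophages in the Lpl values was not tested. Mup genes have near-identical copies, so the Mup20 value is uncertain to that extent. Mup3 was at 180.6 ± 96.0 FPKM in WT, against 186.2 ± 60.85 FPKM in KO (limma adjusted p = 0.9485). Mup21 was at 40.37 ± 20.49 FPKM in WT, against 40.15 ± 11.41 FPKM in KO (limma adjusted p = 0.963). Cyp2a4, a steroid hydroxylase gene with close copies, averaged 426 ± 212 FPKM in WT, against 380 ± 95.6 FPKM in KO (limma adjusted p = 0.985), and Elovl3 was above 0 in WT 3 and WT 4 alone.

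Other fetal or tumour genes of liver were often low in both groups. Of 28 in the table, 14 were under 0.5 FPKM in all 8 libraries, among them Epcam, Krt19 and Igf2bp3, and 3 were listed at 0 throughout. Of 7 tested 1 rose, with 3 higher and 2 lower at an unadjusted p under 0.05 (median 0.14), beside 0.408% that rose and 9.81% at that p over all tested genes. Akr1b7, an aldo-keto reductase gene, rose from 0.414 ± 0.328 to 3.49 ± 1.46 FPKM (SD over 4 libraries each; log2 difference 1.64, limma adjusted p = 0.0297). Akr1b7 too passed the minimum of 1 FPKM only through its KO libraries. Its call was lost without WT 1, WT 2, WT 3, WT 4, KO 1, KO 2 or KO 3 (limma adjusted p of 0.0514 to 0.0871). Cyp3a16, a fetal cytochrome P450 gene with close copies, chosen after its values were seen, was at 3.18 to 36.1 FPKM in WT, against 0.740 to 1.83 FPKM in KO (limma adjusted p = 0.275).

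**Figure D5:**
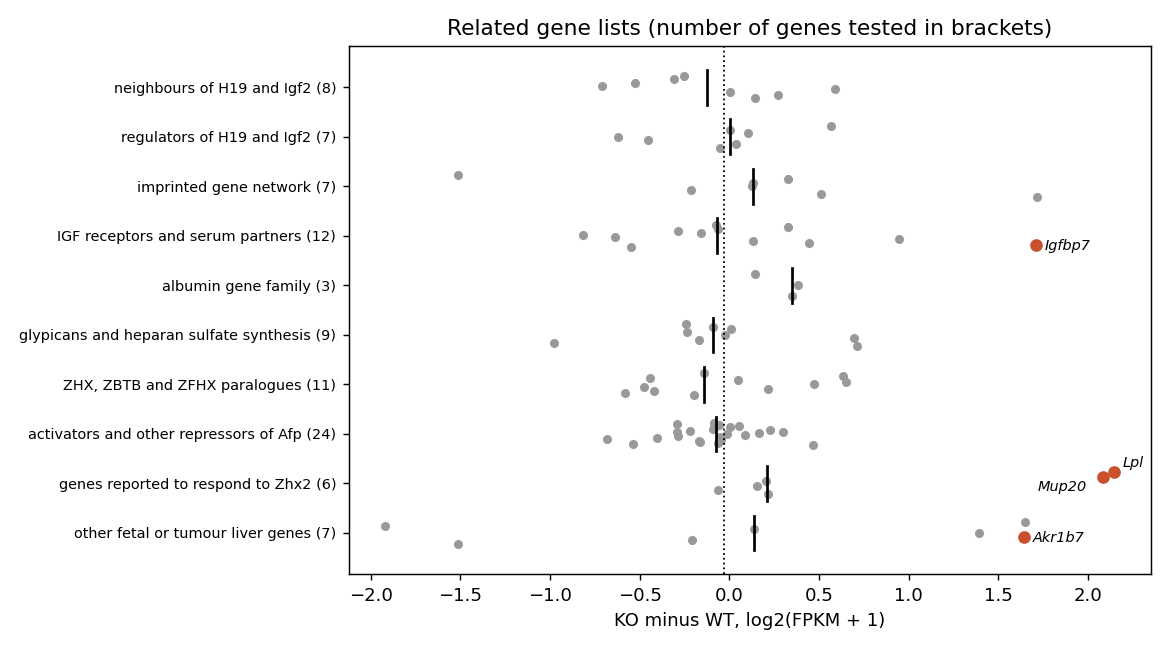
KO minus WT difference on the log2(FPKM + 1) scale for each tested gene of 10 lists (points; red where the limma adjusted p is under 0.05), with the list median as a black bar and the median of all tested genes as a dotted line. Igfbp7, Lpl, Mup20 and Akr1b7 are past the threshold, and the list medians lie between -0.14 and 0.35.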

How the data were processed

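Total RNA of 8 liver samples (4 WT, 4 KO) was extracted (Trizol, Qiagen miRNeasy) and made into Nugen libraries, per the labels' protocols. The authors deposited 1 table of FPKM values, 1 column per sample. TopHat, edgeR and mm10 appear in the submitters' processing notes. Which program computed FPKM, from which annotation and with or without strand is not given in the sources used here. Each value is relative to its library, so a few abundant transcripts shift all other values.

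Columns were matched to samples by name. Of the gene IDs 99.4% matched GENCODE M21 (GRCm38, the same build as mm10), which gave coordinates and transcript lengths. Depth was the number of reads at which low values of single-transcript genes came closest to whole reads. Within 0.1 of a whole read lay 57.1 to 61.6% of these values, against 20% by chance, so read numbers are approximate, cover counting only, and were not used in tests. Genes with a mean of at least 1 FPKM were fitted as log2(FPKM + 1) on genotype with limma 3.58.1 in R 4.3.3 (intensity trend, two-sided, Benjamini-Hochberg over 11266 genes, threshold 0.05), a procedure tested on simulated data. Differences on this scale understate those of low genes.

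The members and gene lists were chosen with earlier results of these data known. Beside the members, the text names up to 4 genes past the threshold per list by smallest p, or the 1 with the smallest p. Other genes were chosen after their values were seen. Alternatives were a pseudocount of 0.1 or 5, no filter, 3 scalings, no trend, array weights, a replicate block and leaving out libraries. Plots used matplotlib 3.10.9.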

Additional observations from a re-analysis of the deposited data

Results flagged for a closer look

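In 37 groups of 4 libraries, over the members and the list genes named, 3 held a library whose gap to the nearest other was above the 95% critical value of Dixon's test, which chance passes in about 1 in 20 groups. Zfhx3 was at 1.75 FPKM in KO 2, above 0.505 to 0.712 FPKM in the other KO libraries. Zfhx2, its paralogue, was at 0.425 FPKM in KO 2, below 1.06 to 1.18 FPKM in the other KO libraries. Lpl was at 0.0192 FPKM in WT 1, below 0.127 to 0.148 FPKM in the other WT libraries.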

How the results depend on the processing

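Over all genes 46 were higher and 40 lower. Counts over 1.5 times away were 27 higher with a pseudocount of 5, 26 lower with no filter, and 75 higher without WT 4 and KO 2 together. Leaving out 1 library gave 20 to 92 higher (92 without KO 2, 20 to 23 without WT 1, WT 2, WT 3, KO 3 or KO 4) and 14 to 44 lower (14 to 23 without WT 1, WT 2, WT 3, KO 1, KO 3 or KO 4). Mir675 was not past the threshold with no filter and with the replicate block. Of the 4 list genes that rose, 2 (Lpl and Mup20) kept the call with no filter, and 2 to 4 genes rose and 0 to 1 fell when 1 library was left out (Peg3 fell without WT 4). The replicate number as a block gave 16 higher and 8 lower, and Igfbp7 lost its call. Akr1b7 lost its call in 11 of 18 alternatives. Deviations of same-numbered libraries correlated at 0.0964, -0.0668, 0.0151 and 0.25, so the numbers do not pair the samples. Among the 6 members tested, Peg3 and the list genes named by smallest p, no fitted difference changed sign. Afp was not fitted without WT 3, and Igf2, Gpc3 and Zfhx3 were not followed. Values of Mir675 and Igf2 rest on about 5 reads or fewer per library.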

Other observations

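The tested genes most like H19 over the 8 libraries, by Pearson correlation of log2(FPKM + 1), were Slc4a9 (0.994), Gsta1 (0.984), Aldh1b1 (0.984) and Mir5114 (0.983). These follow the split between the groups, on which H19 was chosen, so high values over the 8 libraries were fixed in advance. Slc4a9, Gsta1 and Mir5114 passed the minimum of 1 FPKM only through their KO libraries. The correlation of deviations from the group means was 0.714, 0.388, 0.776 and 0.329, in the same order. Slc4a9, an anion exchanger gene, was at 0.136 to 0.274 FPKM in WT, against 1.63 to 2.13 FPKM in KO.

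The genes most like Zhx2 did not follow the genotype. They were Snora7a, a small nucleolar RNA gene (0.984), Ern1, the gene of the stress sensor IRE1 alpha (0.946), Gm24062 (0.937) and Gm4430 (0.930), with correlations of deviations from the group means of 0.980, 0.936, 0.914 and 0.938. Snora7a measured 8.94, 5.46, 1.52 and 0.614 FPKM across WT 1 to WT 4, against 7.31, 3.88, 9.27 and 6.53 FPKM across KO 1 to KO 4. It shared with Zhx2 the high level in WT 1 and the low level in WT 3 and WT 4. These correlations are a description over 8 libraries, chosen as the highest among all tested genes.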
